A study of Caenorhabditis elegans with 2 samples.

Results

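The genes described here encode the nuclear part of the mitochondrial respiratory chain and ATP synthase of the nematode Caenorhabditis elegans, and the question is how they ranked among the candidate regions, peaks and background together, of the nuclear hormone receptor NHR-28. The rule that picked them uses symbols alone and no binding value, but it was set with earlier results of these data known. It takes genes named nuo, ndua, ndub, nduc, nduf, ndus, nduv, cox, cyc, ucr, atp, asb, asg or sdha to sdhd with a number, together with isp-1, gas-1, lpd-5 and mev-1. This gave 71 of the 19973 nuclear protein-coding genes. Of the 71 genes, 33 belong to complex I, 5 to complex II, 7 to complex III, 2 encode cytochrome c, 15 carry cox symbols and 9 belong to the ATP synthase. The cox genes were split into 7 subunits of complex IV and 8 with symbols numbered 10 or higher, which were treated as assembly factors.

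Chromatin immunoprecipitation followed by sequencing was carried out on whole L1 larvae, the first larval stage, of strain OP317. This strain carries the unc-119(ed3) mutation on chromosome III and the integrated transgene wgIs317, from which NHR-28 fused to enhanced green fluorescent protein is expressed. Animals of mixed sex were pooled, and there were 2 biological replicates that form 1 group, with no second condition. All cells of the larva were sampled together, so a region cannot be assigned to a tissue, and binding of the tagged protein is read from a transgene rather than the native gene.

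The respiratory chain passes electrons from NADH through complex I, or from succinate through complex II, to ubiquinone, then through complex III, cytochrome c and complex IV to oxygen. The proton gradient built on the way drives the ATP synthase, complex V. A few core subunits are encoded in the mitochondrial genome and the others in the nucleus, so the assembly of complexes I, III, IV and V draws on both genomes, while complex II is encoded in the nucleus alone. In C. elegans, mutants of this pathway such as isp-1, gas-1, mev-1 and nuo-6 are widely studied for their effects on lifespan and on the response to oxidative stress.

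The authors deposited candidate regions, peaks together with background, in 3 lists of 30000 regions each: one for each replicate and one made from both replicates together, called the pooled list below. Every region has a signal value, set relative to a control, and a rank by that signal within its list, where rank 1 is the highest. A gene was given the best rank of any region whose summit lay within 1 kb of its start. A further list holds the 159 peaks that the authors kept after applying a threshold on the irreproducible discovery rate, which scores each region by the agreement of its ranks in the replicates, and these are the 159 highest regions of the pooled list. Of them, 25 are mitochondrial, and the best nuclear region had rank 23 in the pooled list. The sequencing depth is unknown, since no read counts were used.

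The sequence at the summits is shown first for the genes whose ranks the results turn on. Each line gives 101 bases of ce11 centred on the summit in the pooled list, read from the reference genome on the strand of the gene, 5′ to 3′, with no exon of a protein-coding gene in the window. Capitals mark GAGAGA or its complement TCTCTC, a repeat searched because it had been seen at peaks of these data. The first 3 genes, from complexes IV and I and from cytochrome c, are among the 4 with the highest pooled ranks. The next is the best of complex II and the one after it the best of the ATP synthase. The last pair are the complex I genes of highest rank with the repeat near the summit.
cox-5A (chrIII:12905188-12905288, plus strand): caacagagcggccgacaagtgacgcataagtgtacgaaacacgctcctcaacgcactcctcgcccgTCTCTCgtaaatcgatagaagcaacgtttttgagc
ndua-7 (chrII:13494943-13495043, minus strand): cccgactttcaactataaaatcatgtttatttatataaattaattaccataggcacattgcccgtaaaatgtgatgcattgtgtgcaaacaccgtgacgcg
cyc-2.1 (chrIV:4748711-4748811, minus strand): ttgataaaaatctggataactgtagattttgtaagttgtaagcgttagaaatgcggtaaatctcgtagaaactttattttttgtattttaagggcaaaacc
mev-1 (chrIII:10334086-10334186, plus strand): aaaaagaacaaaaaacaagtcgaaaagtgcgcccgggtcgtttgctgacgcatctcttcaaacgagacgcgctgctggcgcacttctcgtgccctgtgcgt
asb-2 (chrX:4469536-4469636, plus strand): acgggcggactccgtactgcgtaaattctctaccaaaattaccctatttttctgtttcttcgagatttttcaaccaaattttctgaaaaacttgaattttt
ndua-5 (chrIV:9525172-9525272, minus strand): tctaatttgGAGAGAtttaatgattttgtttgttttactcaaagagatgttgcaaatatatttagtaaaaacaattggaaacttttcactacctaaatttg
ndub-8 (chrII:13872589-13872689, plus strand): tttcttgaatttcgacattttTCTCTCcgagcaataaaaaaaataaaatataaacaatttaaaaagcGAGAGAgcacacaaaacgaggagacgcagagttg
The windows of cox-5A and mev-1 were GC-rich, at 52.5% and 53.5%, and that of ndua-5 was the poorest of the 7 at 24.8%. The repeat was present at cox-5A, ndua-5 and ndub-8 and was not found in the other 4 windows.

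Candidate regions lay near 45 of the 71 genes (63.4%) in the pooled list. The same was true of 46.2% of all nuclear protein-coding genes. In replicate 1 a region lay near 50 genes (70.4%, against 48.6% of all genes), and in replicate 2 near 46 (64.8%, against 48.3%). All 3 lists held a region near 33 of the 71 genes (46.5%), against 26.2% of all genes, and no list held a region near 8 of them, which are gas-1, ndub-11, ndub-2, sdhd-1, ucr-1, cox-15, cox-16 and cyc-2.2. That is 11.3% of the respiratory chain genes, against 30.8% of all genes. The median best rank of the genes with a region was 6533 in the pooled list, 7365 in replicate 1 and 13713 in replicate 2, against 11427.5, 11919.5 and 12287 over all genes. Counted over all genes of each set, with those that had no region placed last, the medians of the 71 genes were 14181, 14256 and 21765. Over all nuclear genes, the median in each list taken separately fell among the genes with no region in that list. The respiratory chain genes thus had regions more often than all genes in every list, while in replicate 2 those with a region had a median rank slightly below that of all genes with a region. Genes are not replicates of the experiment, so these shares are given side by side without a test.

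High ranks were more frequent in replicate 1 than in replicate 2. Among the 3000 highest regions of the pooled list, 12 respiratory chain genes had a region (16.9%), against 7.51% of all genes. In replicate 1 there were 17 (23.9%, against 7.32%), and in replicate 2 there were 8 (11.3%, against 7.10%). Among the 1000 highest regions, the counts were 6 in the pooled list (8.45%, against 3.09%), 8 in replicate 1 (11.3%, against 3.03%) and 3 in replicate 2 (4.23%, against 2.60%). Both cox-5A and ndua-7 were in the top 1000 of all 3 lists, 2 genes or 2.82%, against 0.676% of all genes. The shares over all genes were nearly the same in both replicates, and that of the respiratory chain genes lay above them in both and further above in replicate 1. Of the 17 genes and the 8 genes, 3 were shared, 17.6% of the first list and 37.5% of the second. Over all genes, 360 were shared, 24.6% of those in the top 3000 of replicate 1 and 25.4% of those in that of replicate 2. Those 3, cox-5A, ndua-7 and ndua-2, were in the top 3000 of all 3 lists (4.23% of the 71 genes, against 1.62% of all genes). Of the others in replicate 1, mev-1, sdhb-1, atp-2 and nuo-2 had no region within 1 kb in replicate 2. The nearest replicate 2 summits lay 2945 and 2129 bp from mev-1 and atp-2. For sdhb-1 and nuo-2 they lay just outside the limit, at 1006 and 1009 bp.

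**Figure D1:**
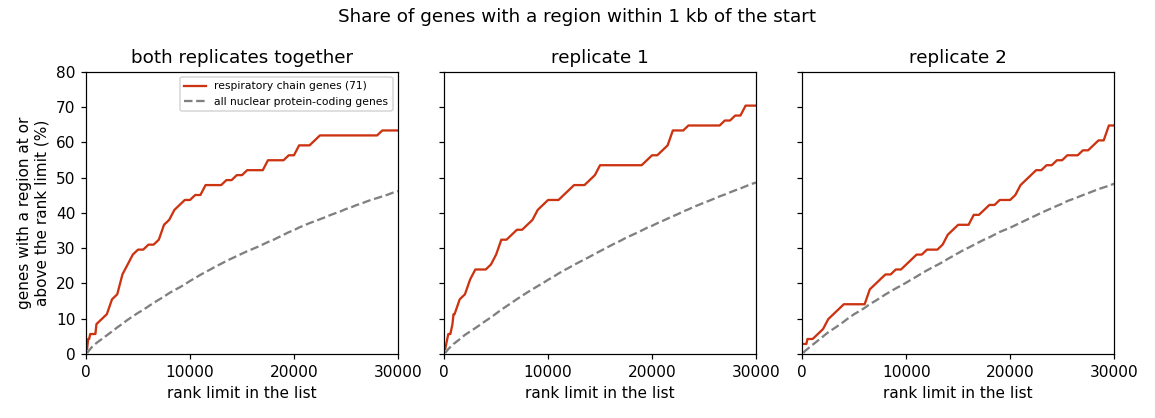
Share of genes (%, vertical axis) that have a region at or above a given rank (horizontal axis) within 1 kb of their start, for the 71 respiratory chain genes (solid) and all nuclear protein-coding genes (dashed), in the list of both replicates together and in each replicate. At rank 3000 the solid line stands at 16.9%, 23.9% and 11.3%, with the dashed line at 7.51%, 7.32% and 7.10%.

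The gene at the highest rank was cox-5A, which encodes a subunit of complex IV, cytochrome c oxidase. Its region on chromosome III from 12905073 to 12905402 had rank 73 in the pooled list, rank 84 in replicate 1 and rank 77 in replicate 2, with signals of 66.52, 37.42 and 29.58. The summit lay in intergenic sequence 253 bp upstream of the start in the pooled list, 334 bp upstream in replicate 1 and 214 bp upstream in replicate 2. This is the one gene of the 71 that stood near the top of all 3 lists at almost the same rank, and its regions overlapped in all of them. The next protein-coding start is 5019 bp away, so no other start lies within 1 kb of the summit. Its -log10 q was 2.28 in the pooled list, the highest value found in that list.

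A thresholded peak was found at 2 of the 71 genes (2.82%), against 0.501% of all genes. The other was at ndua-7, which encodes an accessory subunit of complex I. Its region on chromosome II from 13494828 to 13495157, 393 bp upstream and with drr-1 also starting within 1 kb, had rank 138 in the pooled list with a signal of 51.80. The replicates placed it at rank 848 with signal 21.75 and at rank 53 with signal 32.84, so it stood higher in replicate 2. The gene just below the threshold was ndua-2, an accessory subunit of the peripheral arm of complex I, at rank 169 with signal 47.74, where the lowest peak kept by the authors had rank 159 and signal 48.9. For ndua-2 the replicates were the other way round, at rank 132 and signal 32.15 in replicate 1 against rank 2805 and signal 14.47 in replicate 2. Its region on chromosome I from 14113180 to 14113509 lay 291 bp upstream of ndua-2 and 237 bp from the start of dnj-29, a gene of the DnaJ chaperone family, with fld-1 also within 1 kb.

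**Figure D2:**
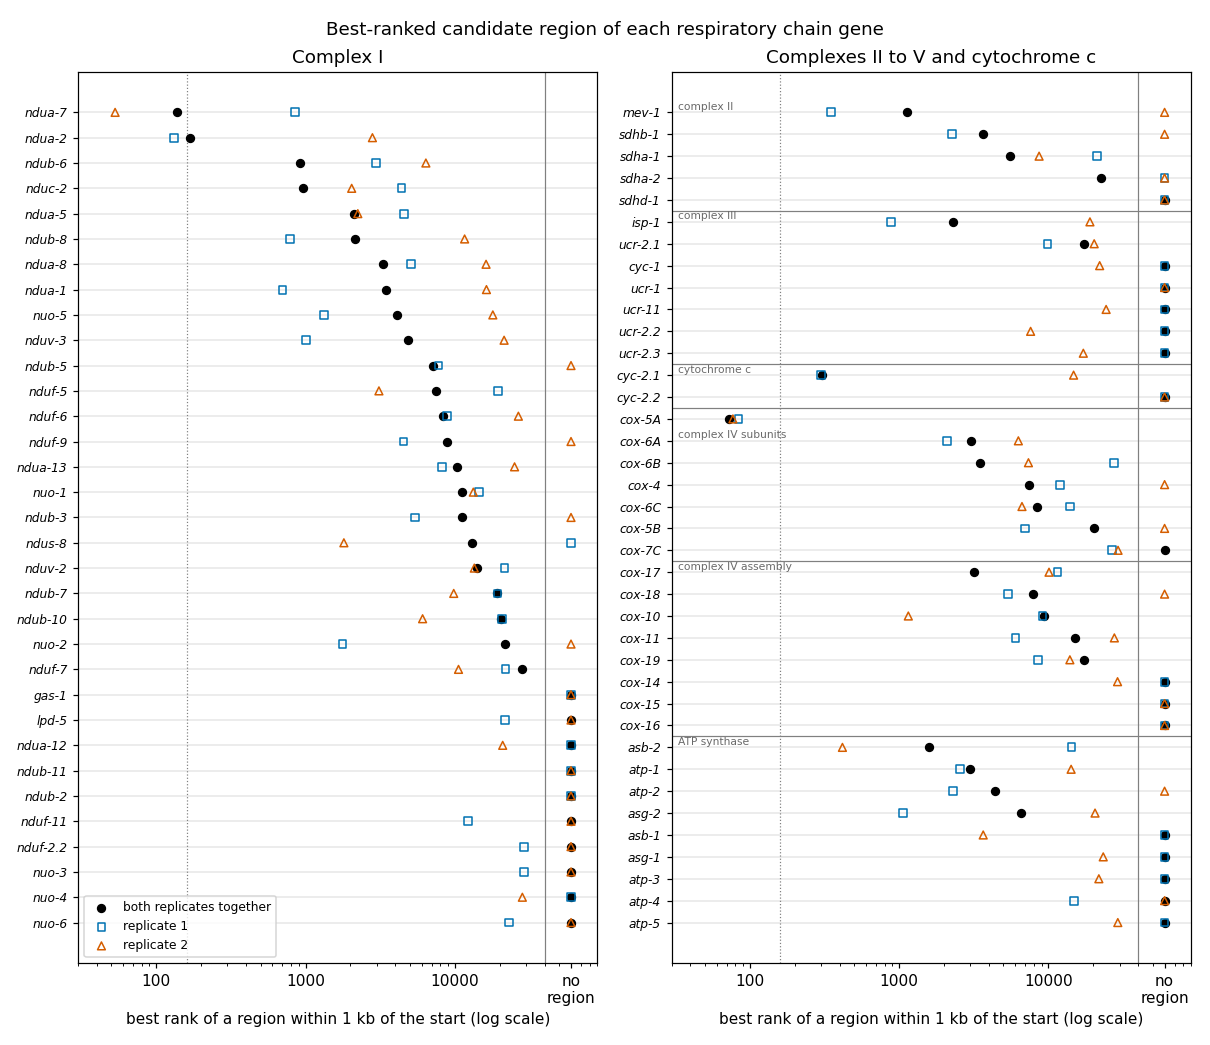
Best rank (horizontal axis, logarithmic, rank 1 highest) of a region within 1 kb of the start of each of the 71 genes, in the list of both replicates together (filled circles), replicate 1 (squares) and replicate 2 (triangles). Genes with no region in a list are drawn at the right, and the dotted line marks the lowest rank of a thresholded peak, 159. The marks of cox-5A nearly coincide, and those of most other genes are spread widely.

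Complex I, NADH dehydrogenase, is the largest complex, with 33 of the 71 genes, and it held 6 of the 12 genes in the pooled top 3000. That is 18.2% of its genes, against 7.51% of all genes. A region lay near 23 of its 33 genes in the pooled list (69.7%, against 46.2%), near 27 in replicate 1 (81.8%, against 48.6%) and near 21 in replicate 2 (63.6%, against 48.3%). In all 3 lists 18 genes had a region (54.5%, against 26.2%). After ndua-7 and ndua-2 came ndub-6, a membrane arm subunit, with pooled rank 920 and ranks 2953 and 6397 in replicates 1 and 2. Its region on chromosome IV from 11652032 to 11652361 lies between divergent starts, 206 bp upstream of ndub-6 and 174 bp from acl-3. The region of nduc-2 had pooled rank 968 and replicate ranks 4398 and 2037, with the summit at the same base in both replicates. It lay 881 bp upstream of nduc-2 but only 23 bp from the start of Y71H2AM.20, the farthest from its gene of the 45 pooled regions. The remaining genes, ndua-5 at pooled rank 2105 and ndub-8 at 2160, complete the set of 6 complex I genes in the top 3000.

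The nuclear core subunits of complex I, which carry out electron transfer, are nuo-1, nuo-2, nuo-5, nduv-2, nduf-7, ndus-8 and the paralogues gas-1 and nduf-2.2. None was in the pooled top 3000, a count too small to set against the 7.51% of all genes found there. The gene nuo-1, whose product binds NADH and flavin, had ranks 11238, 14528 and 13293 in the pooled list, replicate 1 and replicate 2. The signals were 18.79, 11.48 and 9.425, near the medians of the lists (17.1, 11.3 and 9.01), and the summit lay 230 bp upstream, with the start of rpl-36.A also within 1 kb. For nuo-5, a core iron-sulfur subunit, the ranks were 4120, 1328 and 17968, and the best regions of the replicates were 1304 bp apart, so they were different sites. Of the paralogues of the core ubiquinone-site subunit, gas-1 had no region in any list and nduf-2.2 had only a low one in replicate 1, at rank 28927. For nduv-2 the ranks were 14181, 21517 and 13505, and for nduf-7 they were 28165, 21876 and 10583. The accessory subunit genes lpd-5 and nuo-6, both known from mutants, had a region in replicate 1 alone, at ranks 21676 and 23091. A core subunit with a high rank in 1 replicate was nuo-2, with rank 1769 in replicate 1, no region in replicate 2 and rank 21755 in the pooled list. For ndus-8 it was replicate 2 that held a high rank, 1806, with no region in replicate 1 and pooled rank 13025.

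Sorting complex I by the place of the homologous mammalian subunits separated the peripheral arm, which reaches into the matrix, from the membrane arm, which pumps protons. Regions in all 3 lists were found for 9 of 17 peripheral arm genes (52.9%) and 9 of 16 membrane arm genes (56.2%), against 26.2% of all genes. In the pooled top 3000 there were 3 genes of each arm (17.6% and 18.8%, against 7.51%). In the top 3000 of replicate 2, there were 4 of the peripheral arm and 1 of the membrane arm (23.5% and 6.25%, against 7.10%). In that of replicate 1 there were 5 and 3 (29.4% and 18.8%, against 7.32%).

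Complex II, succinate dehydrogenase, links the citric acid cycle to the chain. Within 1 kb, more of its genes had a region in replicate 1 than in replicate 2. The best was mev-1, which encodes the cytochrome b subunit and was found through mutants sensitive to the herbicide methyl viologen. Its region on chromosome III from 10333971 to 10334300 had rank 1130 and signal 31.38 in the pooled list and rank 350 and signal 25.68 in replicate 1, and replicate 2 had no region within 1 kb. The summit lay 141 bp upstream of mev-1 and 118 bp from jmjd-4, which starts 259 bp away. The iron-sulfur subunit gene sdhb-1 had pooled rank 3655, rank 2264 in replicate 1 and an intronic pooled summit 462 bp into the gene. It had no region within 1 kb in replicate 2, but the nearest summit there lay just outside, at 1006 bp. The flavoprotein gene sdha-1 had ranks 5537, 21262 and 8661, and its regions overlapped in all 3 lists, with summits 297, 206 and 96 bp upstream of the start. Its paralogue sdha-2 had a region in the pooled list alone, at rank 22454, and sdhd-1, an anchor subunit, had none. Complex II thus had 4 of 5 genes with a region in the pooled list, 3 in replicate 1 and 1 in replicate 2, and only sdha-1 had a region in all 3. The shares over all genes were 46.2%, 48.6%, 48.3% and 26.2%, and 5 genes are too few to set against them. With a limit of 2 kb in place of 1 kb, 3 complex II genes had a region in all 3 lists, as did 46.3% of all genes.

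Complex III, which passes electrons from ubiquinol to cytochrome c, had the fewest pooled regions for its size, 2 of 7 genes (28.6%, against 46.2% of all genes). Its best gene was isp-1, which encodes the Rieske iron-sulfur protein. The ranks of isp-1 were 2286 in the pooled list, 886 in replicate 1 and 18969 in replicate 2. The pooled summit lay 14 bp upstream of the start and that of replicate 1 lay 3 bp upstream, whereas the best region of replicate 2 was a different site 540 bp downstream. The core protein gene ucr-2.1 had ranks 17350, 9856 and 20254. The start of nmat-1 was nearer to the summit in the pooled list and replicate 1, at 69 and 73 bp. In replicate 2 the summit lay 24 bp from ucr-2.1. Its paralogues ucr-2.2 and ucr-2.3 had regions in replicate 2 alone, at ranks 7598 and 17127. So did cyc-1, the gene of cytochrome c1, at rank 22036 and ucr-11 at rank 24349, and ucr-1 had none. Replicate 2 therefore held regions for 6 of the 7 genes (85.7%, against 48.3% of all genes), none of them above rank 7598. Replicate 1 held regions for 2 (28.6%, against 48.6%).

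The cytochrome c paralogues stood apart from each other. The region of cyc-2.1 on chromosome IV from 4748596 to 4748925 had rank 303 and signal 41.33 in the pooled list and rank 300 and signal 26.47 in replicate 1. In replicate 2 it overlapped a region of rank 14743 and signal 9.063, close to that list's median of 9.01. Its pooled summit lay 251 bp downstream, in an intron, with the start of tctn-1 also within 1 kb. The start of rpl-20 lay within 1 kb of the replicate 1 summit. The region is the highest of the respiratory chain regions that lay downstream in the pooled list. For cyc-2.2 no list held a region, and the nearest pooled summit was 23383 bp from its start. The gap between the replicates at cyc-2.1, 49.1-fold in rank, was the widest among the 34 genes with a region in both.

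Below cox-5A, the other subunit genes of complex IV had middling ranks. All 7 had a region in replicate 1, 6 in the pooled list and 5 in replicate 2, against 48.6%, 46.2% and 48.3% of all genes. In the order of pooled list, replicate 1 and replicate 2, cox-6A had ranks 3031, 2089 and 6289. The pooled summit of cox-6A lay in an intron 758 bp downstream, and AGGTCA, the core site of many nuclear receptors, lay within 100 bp of it. That was 1 of the 45 summits (2.22%), against 3.96% of all nuclear regions of the pooled list, which lie at any distance from a gene. The ranks of cox-6B were 3505, 27560 and 7348, in a region 800 bp upstream of it but 46 bp from slc-30A9. The annotated cox-6B gene runs from 2699663 to 2786859 on chromosome III, and only its outermost start was used for these ranks. Whether that start is its main promoter was not tested. For cox-4 the ranks were 7397 and 11940, and for cox-5B 20267 and 6947, with no region in replicate 2 for either. The pooled region of cox-5B, 741 bp upstream, was nearer to the start of tba-1, an alpha-tubulin gene. Its region in replicate 1 was another site, 104 bp downstream of the start of cox-5B and with no other start within 1 kb. The genes cox-6C (pooled rank 8435) and cox-7C (none in the pooled list) complete the set.

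Assembly factors of complex IV, which deliver copper and heme or insert subunits, numbered 8 genes, of which none was in the top 3000 of the pooled list, again too few to set against 7.51% of all genes. The best was cox-17, a copper chaperone, with ranks 3160, 11494 and 10092. Its summits lay 163, 130 and 163 bp upstream, in the 3' UTR of another gene, and the replicates differed 1.14-fold in rank there. The heme A synthesis gene cox-10 had ranks 9281, 9122 and 1152 and the only top 3000 region of the group, in replicate 2. The pooled summit lay 36 bp from the start of Y38E10A.33. Regions in all 3 lists were found for 4 of the 8 genes and in none for cox-15 and cox-16.

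ATP synthase genes divided between the replicates. The highest was asb-2, which encodes subunit b of the peripheral stalk, with pooled rank 1585 and signal 29.52 on the X chromosome from 4469421 to 4469750, 180 bp upstream. It had rank 417 and signal 20.83 in replicate 2. In replicate 1 its best region, at rank 14256, adjoined the replicate 2 region without overlapping it. Its germline paralogue asb-1 had a region in replicate 2 alone, at rank 3657, and no pooled summit within 24225 bp. The alpha subunit gene atp-1 had ranks 2967, 2569 and 14191, at a site 185 bp upstream that lies 5 bp from the start of mcrs-1. The beta subunit gene atp-2, which holds the catalytic sites with alpha, had pooled rank 4419, rank 2286 in replicate 1 and no region in replicate 2. The pair asg-2 and asg-1, for subunit g, differed like asb-2 and asb-1 in the pooled list, where asg-2 had rank 6533 and asg-1 had no region. In replicate 2 both were low, at ranks 20522 and 23287. The stalk genes atp-3, atp-4 and atp-5 each had a region in a single replicate, at ranks 21765, 14796 and 29156.

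**Figure D3:**
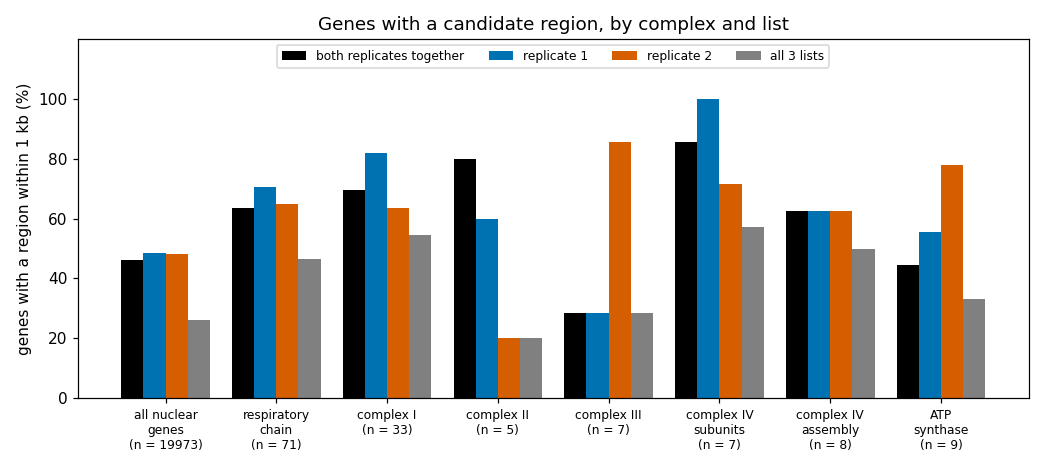
Percentage of genes (vertical axis) with a region within 1 kb of the start in the list of both replicates together (black), replicate 1 (blue), replicate 2 (orange) and all 3 lists (grey), for all nuclear protein-coding genes, the 71 respiratory chain genes and each complex. The number of genes is under each group, and cytochrome c (2 genes) is drawn only within the 71. Complex III stands at 28.6% in replicate 1 and 85.7% in replicate 2, against 48.6% and 48.3% of all genes.

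Set side by side, the shares of genes with a region in all 3 lists were 54.5% for complex I, 1 gene of 5 for complex II, 28.6% for complex III, 53.3% for complex IV with its assembly factors and 33.3% for the ATP synthase. The share over all genes was 26.2%, and those of complexes II, III and V lay near it. Complexes II, III and V hold 5, 7 and 9 genes, so a change of 1 gene moves their shares by over 10 percentage points. Their order also differed between the replicates. In replicate 1 complex IV subunits and complex I had the highest shares (100% and 81.8%) and complex III the lowest (28.6%). In replicate 2 complex III and the ATP synthase had the highest (85.7% and 77.8%) and complex II the lowest (1 of 5 genes). The shares over all genes were 48.6% in replicate 1 and 48.3% in replicate 2. The top 3000 of the pooled list held 6 genes of complex I, 2 of the ATP synthase and 1 each of complexes II, III and IV and of cytochrome c. The complexes that stood first in one replicate therefore did not stand first in the other.

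The replicates gave different ranks for most genes. A region in both was found for 34 of the 71 genes (47.9%, against 29.7% of all genes), and 18 of the 34 ranked higher in replicate 1 (52.9%, against 50.8%). Of the 34 genes, 18 had best regions that overlapped (52.9%), and over all genes this was 50.6% of 5923. When any regions within 1 kb were compared, and not only the best, 23 of the 34 genes had an overlap. That count was not made over all genes. Ranks differed by at most 2-fold for 7 of the 34 (20.6%, against 44.0% of the 5923) and by over 10-fold for 10 (29.4%, against 712 of the 5923). Of these 10 genes, 8 ranked higher in replicate 1, and over all genes this was 55.2% of the 712. Spearman's rho between the ranks of the replicates was 0.00 over the 34 genes and 0.17 over the 5923, given as a description, since all genes come from the same libraries. After cyc-2.1, the widest gaps were at asb-2 (34.2-fold), ndua-1 (23.3-fold), isp-1 (21.4-fold) and, at 21.2-fold both, ndua-2 and nduv-3. For ndua-1 the ranks were 700 in replicate 1 and 16283 in replicate 2, and for nduv-3 they were 1006 and 21376. At asb-2, ndua-1, isp-1 and nduv-3 the best regions of the replicates did not overlap, while at cyc-2.1 and ndua-2 they did. Those of asb-2 adjoined, since the replicate 1 region ended at 4469336 and the replicate 2 region started at 4469337. Those of ndua-1 were close, ending at 20852159 and starting at 20852190. Of the 45 genes with a pooled region, the 18 whose best replicate regions overlapped had a median pooled rank of 3063.5, with 9 in the top 3000. For the 15 whose best regions did not overlap it was 6533, with 2 in the top 3000, and for the other 12 it was 8423.5, with 1. The pooled list is made from the same libraries, so this describes the lists and is no independent check.

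**Figure D4:**
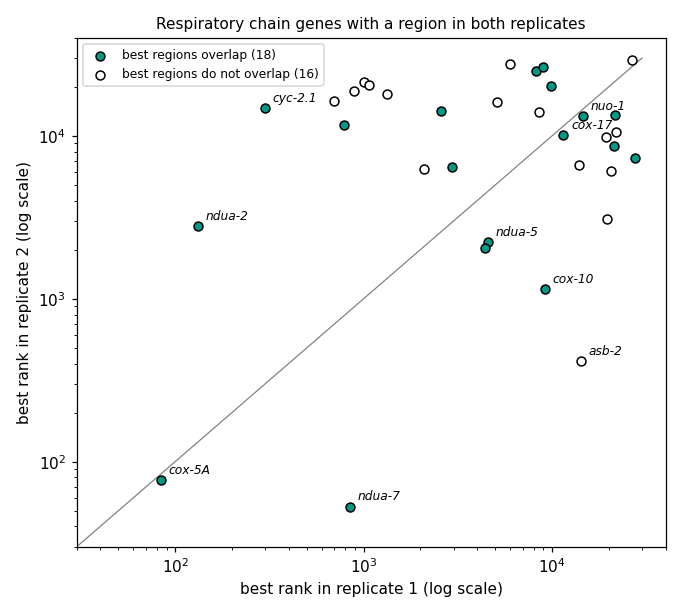
Best rank in replicate 1 (horizontal axis) and replicate 2 (vertical axis), both logarithmic with rank 1 highest, for the 34 respiratory chain genes with a region in both replicates; filled points are genes whose best regions overlap (18) and open points those whose best regions do not (16). Only cox-5A lies at the high end of both axes close to the diagonal, with ranks 84 and 77; the correlation over the 34 points is 0.00.

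Most regions lay upstream of the start. In the pooled list 35 of the 45 best summits (77.8%) were upstream, at a median of 253 bp, and 27 (60.0%) lay within 400 bp upstream. Over all 9224 genes with a pooled region the values were 63.2%, 402 bp and 31.4%. The replicates gave similar shares, with 39 of 50 upstream (78.0%, median 301 bp) in replicate 1 and 34 of 46 (73.9%, median 267.5 bp) in replicate 2. Summits were intergenic for 27 of the 45 genes, intronic for 9, in 3' UTRs for 3, in coding exons for 3, in 5' UTRs for 2 and in another exon for 1. Just inside the limit of 1 kb was nduc-2, at 881 bp, and just outside was ucr-11, whose nearest pooled summit lay at 1176 bp, followed by nuo-4 at 1462 bp.

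Many of these genes start close to another gene, counted on either side and on either strand. Another protein-coding start lay within 1 kb for 44 of the 71 genes (62.0%), against 23.5% of all nuclear protein-coding genes, and the median distance to the nearest other start was 754 bp against 2134 bp. For 29 of the 45 pooled regions a second gene started within 1 kb of the summit, and for 15 another gene's start was nearer. When a region counted only for the gene with the nearest start, 34 respiratory chain genes had a pooled region (47.9%, against 41.4% of all genes). Without that restriction the shares were 63.4% and 46.2%, which lie further apart. With it, the top 3000 of the pooled list held 7 respiratory chain genes (9.86%, against 6.13%), and regions in all 3 lists fell to 20 (28.2%, against 21.7%). Among genes with no other start within 1 kb, 18 of 27 respiratory chain genes (66.7%) had a pooled region, against 46.0% of 15282 genes, and 11 (40.7%) had a region in all 3 lists, against 25.4%.

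**Figure D5:**
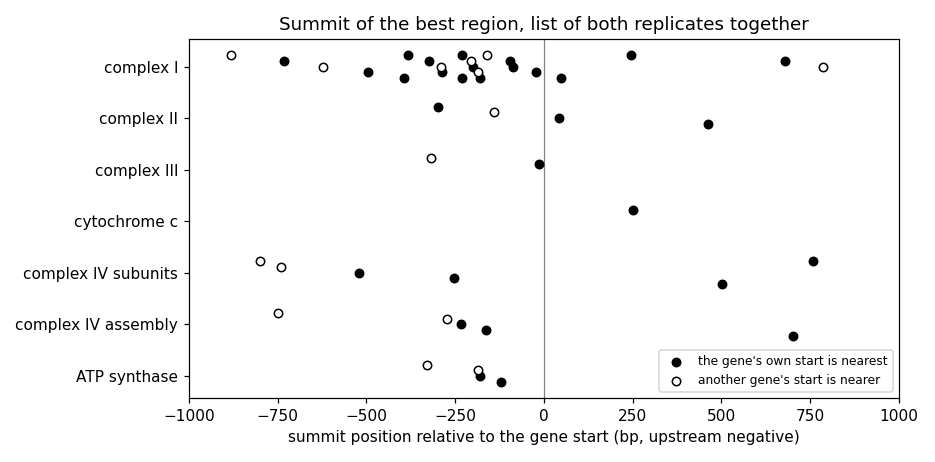
Position of the best summit relative to the gene start (horizontal axis, bp, upstream negative) in the list of both replicates together, for the 45 respiratory chain genes with a region, by complex. Filled points are regions whose nearest protein-coding start is that of the gene itself (30), and open points are regions with a nearer start of another gene (15); 35 of the 45 lie upstream.

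Promoter sequence was searched from 250 bases before to 50 after each start, on both strands. None of the 71 windows held AGGTCA, against 8.27% of all 19973 windows. GAGAGA was in 15 (21.1%, against 21.8%). It was in 8 of the 33 genes with a region in all 3 lists (24.2%) and in 3 of the 8 with a region in no list (37.5%). TTTCAG, on the strand of the gene the splice acceptor that often stands where trans-spliced messages begin, was in 45 (63.4%, against 51.7%). Matches on the opposite strand were counted too, so this is not a count of splice acceptors. TGATAA, the core of GATA factor sites, was in 17 (23.9%, against 30.2%), TGACGT in 5 (7.04%, against 10.3%) and CACGTG in 1 (1.41%, against 5.82%). In the 200 bp around the 45 pooled summits, GAGAGA was in 8 (17.8%), against 9.52% of all nuclear regions of the pooled list. These 8 were at cox-5A, cox-5B, cox-6B, ndua-5, ndub-8, nduf-5, sdha-1 and asb-2. The sets are unlike, since the 45 are the best regions near starts and the others lie at any distance from a gene. TTTCAG was at 46.7% of the 45 summits (against 36.6%), TGATAA at 11.1% (against 19.6%), CACGTG at 4.44% (against 2.39%) and TGACGT at 2.22% (against 5.01%). Median GC content was 35.0% in the 71 promoter windows and 34.3% over all genes. None of these motifs contains another, and a match is a description of these windows, not a site.

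Related mitochondrial gene sets give a scale for these shares in the pooled top 3000. Mitochondrial ribosomal proteins had 11 of 70 genes there (15.7%), the citric acid cycle with pyruvate dehydrogenase 6 of 19 (31.6%) and mitochondrial import 4 of 13 (30.8%). The vacuolar V-ATPase, a proton pump related to the ATP synthase in structure, had 3 of 20 (15.0%), and cytosolic ribosomal proteins had 27 of 82 (32.9%). The smaller sets had 1 of 7 genes for coenzyme Q synthesis, 2 of 12 for other assembly factors and none of 6 for the ADP/ATP and phosphate carriers. The respiratory chain, at 16.9%, lay within the range of these sets, and no test of the differences was made. The counts moved between replicates 1 and 2, from 6 to 1 for the citric acid cycle, from 1 to 5 for import and from 1 to 0 for the V-ATPase. They were 11 and 9 for the mitochondrial ribosome and 26 and 21 for the cytosolic ribosome, against 17 and 8 for the respiratory chain. A pooled region of any rank lay near 63.4% of the respiratory chain genes, also within the range of these sets. The shares were 55.7% and 74.4% for the mitochondrial and cytosolic ribosomes, 52.6% for the citric acid cycle, 84.6% for import and 65.0% for the V-ATPase. In the smaller sets it was 2 of 7 genes for coenzyme Q synthesis, 7 of 12 for other assembly factors and 5 of 6 for the carriers. All 12 mitochondrially encoded genes had a region among the 15 highest of every list. In the pooled list every region above the best nuclear rank, 23, was mitochondrial. This therefore describes the mitochondrial genome as a whole, and it is no result about these 12 genes. The nuclear respiratory chain genes ranked below the mitochondrial ones, starting with cox-5A, ndua-7, ndua-2 and cyc-2.1 at pooled ranks from 73 to 303.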

How the data were processed

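The listing deposited with the files states that the authors derived each candidate list from 1 replicate's alignment, or from both, together with a control, and the thresholded peaks from those lists. The signal values in these lists were made by the authors relative to a control, and were compared only as ranks inside a list. The deposited -log10 q values were printed where named and entered no test. Reads were aligned and peaks called with tools and settings not given in the sources used here, and the same holds for the strain of the control. Depth is unknown, so its effect on the precision of lower ranks cannot be given.

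Lists on ce11 were used, and region ends were checked against chromosome lengths of WBcel235, the same assembly. Gene starts were the outermost starts in Ensembl release 115, and sequences came from the RefSeq copy of the assembly. Tied signals share the better rank. A region was counted for every gene with a start within 1 kb of its summit, so 1 region can count for several genes. The members, comparison lists and motifs were chosen with earlier results of these data known. Genes were named by rule: pooled top 1000, best of each complex, top 3000 of every list, the 5 widest replicate gaps, genes studied in mutants or central to a complex, paralogue groups and genes at thresholded peaks. Any further gene was picked for mention with its values in view. There is 1 group of 2 replicates, so no test between conditions was possible, and counts are set beside those of all nuclear protein-coding genes. Assignment of regions to genes was tested on simulated data. Python 3.11.15, pandas 2.3.3 and numpy 2.4.6 were used.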

Additional observations from a re-analysis of the deposited data

How the results depend on the processing

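The 12 summary values were recomputed under 10 alternatives, of which ranking nuclear regions alone was chosen after seeing the data; 92 values stayed within 1.5 times of those given, or for the median rank within 4489, the SD between the replicates, and 28 did not. Within that SD, the pooled median best rank went from 6533 to 3505 at 2 kb and to 3887.5 with the 15000 highest regions, where those of all genes with a region were 9882 and 6356. With only the 15000 highest regions, genes with a region in all 3 lists fell from 33 to 15 (21.1%, against 10.7% of all genes), with 7 for complex I, 0 for complex II, 1 for complex III with cytochrome c and 5 for complex IV. At 500 bp, 20 genes had a region in all 3 lists (28.2%, against 13.3%), with 11 in complex I and 3 in complex IV. At 2 kb, 10 genes were in the pooled top 1000 (14.1%, against 4.82%) and 6 in the top 3000 of all 3 lists (8.45%, against 2.80%), with 3 in complex II and 5 in complex III with cytochrome c having a region in all 3. Counting a region only for the nearest start gave 20 genes in all 3 lists (28.2%, against 21.7%), 7 in the pooled top 3000 (9.86%, against 6.13%), 3 in the pooled top 1000 (4.23%, against 2.38%), 9 in complex I and 5 in complex IV. With regions rather than summits within 1 kb, complex II had 2, and without assembly factors complex IV had 4. When the list of a single replicate replaced every list (without replicate 1 or without replicate 2), genes with a region numbered 46 to 50 and those in the top 3000 numbered 8 to 17. In the top 1000 there were 3 to 8, and the median best rank was 7365 to 13713. Complex II had 1 to 3, complex III with cytochrome c 3 to 7 and complex V 5 to 7. The cause of these shifts was not tested, although a single list in place of 3 and a shorter list allow more or fewer regions by construction. No paired analysis was possible because there is a single group. Depth is unknown, so what it limits cannot be stated.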
